A study of Mus musculus with 6 samples.

Results

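The genes examined here encode the digestive machinery of the lysosome: its proteases and other hydrolases, the membrane proteins of its limiting membrane, the proton pump that acidifies it, and a few genes that regulate it. The 35 members were listed by name, from what their products are known to do, but with earlier results of these data known. They are 35 of the 55538 features in a single table of unique molecular identifier (UMI) counts. Their levels were set side by side in macrophages, B cells and T/NK cells of the mouse peritoneum, and in macrophages gated on *Gata6*, *Folr2* or *Irf4*. The gates that define these cells use no member's UMIs.

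Resident peritoneal cells were lavaged from adult mice, 8 to 12 weeks old, of the C57BL/6 strain (C57BL/6J in the study's methods, to which the MerKD mice were backcrossed) and of genotype MerTK +/+ (WT) or MerTK -/- (the MerKD allele, which inactivates the efferocytosis receptor MerTK in every cell), and were plated for 1 h to keep the adherent cells. Cells of each genotype received a media change as control, or were kept for 2 h or 6 h with apoptotic human Jurkat T cells that had been killed by UV light. Each of these 6 groups is 1 sample, made from the cells of 3 pooled mice, and each gave 1 library of the 5′ single-cell assay of 10x Genomics. The table marks each cell with a library number from 1 to 6, and no source used here ties a number to a genotype or a time, so no group was compared with another and no number was given a condition. Values are therefore given over the pool of all libraries and for each library number. Since cells of 1 library are not replicates, no p-value is given, and intervals cover counting error only.

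Of 7760 barcodes, 7665 passed the limits on genes, complexity and mitochondrial reads. A cell counted as a macrophage when it held at least 2 UMIs of *Csf1r*, *Adgre1* and *Fcer1g* together, at most 2 of *Cd79a* and *Cd79b*, and at most 1 of *Cd3d*, *Cd3e* and *Nkg7*. B cells held at least 4 UMIs of *Cd79a* and *Cd79b*, and T/NK cells at least 2 of *Cd3d*, *Cd3e* and *Nkg7*. This gave 2773 macrophages, 2948 B cells and 514 T/NK cells, with medians of 4426, 5416 and 2814 UMIs per cell, while 153 cells in both lymphocyte gates were set aside and 1277 fell in no gate. Each library held between 4234786 and 10287079 UMIs. A doublet caller marked 47 barcodes (0.606%), which were kept, and 28 barcode sequences occurred in more than 1 library.

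The gates were checked against marker lists. Of 10 macrophage markers, 9 were found in at least 10% of the gated macrophages, 7 of 8 B cell markers in the B cells and 7 of 10 T and NK cell markers in the T/NK cells. Among macrophages all 6 mesothelial markers were at 0, and 0 of 8 dendritic and 0 of 8 B cell markers reached 10% of cells, while 1 of 10 T and NK cell markers did (*Il7r*, 17.9%). *Hdc* of the mast cell list was found in 16.7% of macrophages and in 31.6% of the *Gata6*-gated ones, while the other 6 mast cell markers were in under 1% of macrophages, *Cpa3* in none. *Csf3r* of the neutrophil list was found in 18.8% and *S100a8* in 7.50%, while *Ly6g* and *Ngp* were at 0. The labels call every sample peritoneal macrophages, yet B cells outnumbered macrophages in the pool.

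Lysosomes receive what a macrophage has engulfed. Phagosomes that carry an apoptotic cell fuse with them, the vacuolar ATPase pumps protons inward, and acid hydrolases then break proteins, lipids, glycans and nucleic acids into parts that the cell can reuse. Most of the enzymes are made as inactive precursors and reach the lysosome through mannose phosphate receptors. Many genes for lysosomal proteins carry near their start a short palindromic element, built around the letters CACGTG, that the transcription factor TFEB and its relatives are known to bind. Resident macrophages of the peritoneum are known as efficient phagocytes of dying cells, whereas B and T lymphocytes use the same organelle mainly for turnover and, in B cells, for antigen processing.

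The promoters of 5 members with that element are shown because they span the roles in the group: a protease (*Ctsd*, cathepsin D), a carboxypeptidase (*Ctsa*), the main membrane glycoprotein (*Lamp1*), the calcium channel (*Mcoln1*, mucolipin) and the catalytic pump subunit (*Atp6v1a*). Each sequence runs 5′ to 3′ on the gene's strand, from 250 bases before the annotated start to 50 bases after it, and comes from RefSeq on GRCm38.p6. Capitals mark CACGTG, together with a T before it or an A after it where these are present. The windows are chr7:142387778-142388077 on the minus strand for *Ctsd*, chr2:164833523-164833822 on the plus strand for *Ctsa*, chr8:13158911-13159210 on the plus strand for *Lamp1*, chr8:3500269-3500568 on the plus strand for *Mcoln1* and chr16:44139210-44139509 on the minus strand for *Atp6v1a*.
Ctsd: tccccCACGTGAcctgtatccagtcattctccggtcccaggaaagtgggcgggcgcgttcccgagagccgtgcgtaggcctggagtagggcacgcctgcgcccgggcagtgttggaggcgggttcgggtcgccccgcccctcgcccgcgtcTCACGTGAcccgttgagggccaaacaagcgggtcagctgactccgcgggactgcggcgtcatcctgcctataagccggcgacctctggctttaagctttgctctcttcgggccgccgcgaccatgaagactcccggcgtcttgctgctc
Ctsa: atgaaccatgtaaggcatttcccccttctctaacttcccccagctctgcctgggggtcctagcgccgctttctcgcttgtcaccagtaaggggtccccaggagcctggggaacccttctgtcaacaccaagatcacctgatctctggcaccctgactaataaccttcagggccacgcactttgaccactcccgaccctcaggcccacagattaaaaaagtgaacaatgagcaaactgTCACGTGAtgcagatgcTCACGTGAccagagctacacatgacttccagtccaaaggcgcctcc
Lamp1: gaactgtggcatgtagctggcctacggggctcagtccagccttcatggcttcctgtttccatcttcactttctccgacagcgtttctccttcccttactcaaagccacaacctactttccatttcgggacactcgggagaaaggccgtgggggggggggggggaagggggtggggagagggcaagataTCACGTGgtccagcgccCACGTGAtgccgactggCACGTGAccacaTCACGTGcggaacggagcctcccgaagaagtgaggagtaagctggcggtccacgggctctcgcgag
Mcoln1: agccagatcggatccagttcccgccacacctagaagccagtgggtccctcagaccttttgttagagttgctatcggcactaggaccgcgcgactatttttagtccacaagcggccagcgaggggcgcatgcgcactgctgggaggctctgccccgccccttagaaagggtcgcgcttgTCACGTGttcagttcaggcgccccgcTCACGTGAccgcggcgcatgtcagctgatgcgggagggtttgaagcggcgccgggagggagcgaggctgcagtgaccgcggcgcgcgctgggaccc
Atp6v1a: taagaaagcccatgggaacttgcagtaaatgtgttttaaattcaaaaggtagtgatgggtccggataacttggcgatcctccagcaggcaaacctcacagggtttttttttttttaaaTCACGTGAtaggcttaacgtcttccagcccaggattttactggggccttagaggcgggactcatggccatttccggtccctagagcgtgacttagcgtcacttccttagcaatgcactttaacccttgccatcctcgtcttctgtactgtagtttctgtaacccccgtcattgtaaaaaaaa

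The *Lamp1* window holds 4 copies of CACGTG within the last 61 bases before the start, those of *Ctsd*, *Ctsa* and *Mcoln1* hold 2 each, and that of *Atp6v1a* holds 1. Of the 30 members with a promoter entry, 9 (30.0%) held CACGTG on either strand (*Ctsl*, *Lgmn*, *Ctsd*, *Ctsa*, *Lamp1*, *Gla*, *Glb1*, *Mcoln1* and *Atp6v1a*), against 8.09% of 27025 genes with a window of the same length. The longer palindrome TCACGTGA, which contains CACGTG, was found in 5 of the 30 (16.7%) and in 1.12% of all genes. No entry was found for *Ctsb*, *Ctsh*, *Asah1*, *Atp6v1b2* and *Atp6v0d2*. A match says only that these letters occur in the window.

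The members lie on 16 chromosomes. The closest pair is *Ctsk* and *Ctss* on chromosome 3 (GRCm38, GENCODE annotation), with 17424 bases between them, and these neighbours differed widely in level, at 0.943 and 440.3 CPM in macrophages. On its own strand, *Ctsd* overlaps a second annotated protein-coding gene and *Glb1* another, while *Ctsl* and *Ctss* each overlap a processed pseudogene, so the split of reads in these 4 genes is less certain.

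Macrophages put a larger share of their UMIs on the 35 members than lymphocytes did, in every library. The 35 members took 1.46% of all UMIs of the pooled macrophages (exact 95% interval 1.46 to 1.47), 0.308% in B cells (0.306 to 0.311) and 0.295% in T/NK cells (0.287 to 0.303). By library number from 1 to 6, the share in macrophages was 1.05%, 1.07%, 1.59%, 1.64%, 1.76% and 2.30%, that in B cells 0.274%, 0.293%, 0.329%, 0.288%, 0.324% and 0.443%, and that in T/NK cells 0.378%, 0.243%, 0.314%, 0.158%, 0.209% and 0.322%. The lowest macrophage value lay above the highest value of either lymphocyte class, and macrophages exceeded B cells 3.65-fold to 5.71-fold within a library. Cell by cell, the median share was 1.49% in macrophages, 0.266% in B cells and 0.163% in T/NK cells, and 92.2% of macrophages lay above the 95th percentile of B cells. Macrophage RNA in the lymphocyte gates, given further on, touches the T/NK value.

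**Figure D1:**
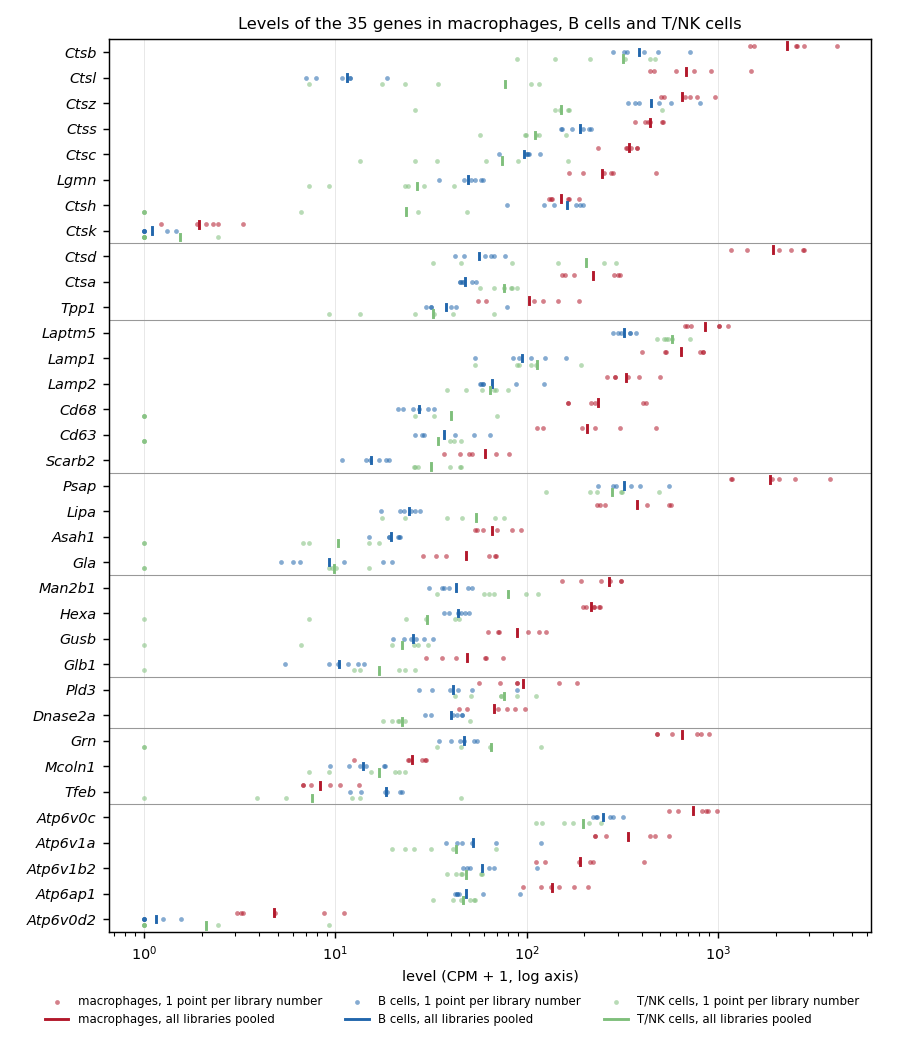
Level of each of the 35 lysosomal genes in macrophages (red), B cells (blue) and T/NK cells (green), as CPM plus 1 on a log axis. Points are the 6 library numbers and vertical bars the pooled libraries, with genes grouped by role between the grey lines. *Ctsb*, *Ctsd* and *Psap* lie furthest to the right, above 1000 CPM in macrophages, and *Ctsk*, *Atp6v0d2* and *Tfeb* furthest to the left.

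Within macrophages the members spanned over 3 orders of magnitude in CPM, the UMIs of a gene per 1000000 UMIs of the cells concerned, a scale which needs no correction for gene length because each UMI stands for 1 captured 5′ end. *Ctsb*, *Ctsd* and *Psap* were above 1000 CPM and together held 41.8% of the members' UMIs. A further 21 members lay between 100 and 1000 CPM and 8 between 10 and 100. *Tfeb*, *Atp6v0d2* and *Ctsk* stayed under 10 CPM.

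For the comparison with lymphocytes, a gene was called when the pooled ratio of (CPM + 1) reached 2-fold and every one of the 6 library numbers had the same direction, among features with a mean of at least 5 CPM. Of the 35 members, 33 passed that minimum, and 28 were called higher in macrophages than in B cells, where 18.1% of 9394 features were, while 1 was called lower, where 20.9% were. Against T/NK cells 28 of 33 were called higher, beside 17.0% of 9642 features, and 0 lower, beside 13.9%. The median log2 ratio over all 35 members was 2.04 against B cells and 2.11 against T/NK cells, while the median over all tested features was -0.14 in both. Both comparisons share the macrophages, and the list was made with earlier results of these data known. All 28 members called higher against B cells were also called under each other setting tried, and 27 of 28 against T/NK cells, *Glb1* being lost after thinning. Of all features called against B cells, 46.3% were higher in macrophages, and this share became 52.3% with TMM scaling and 61.1% with DESeq2 size factors. Against T/NK cells it was 55.1%, and 70.3% and 65.7% under those scalings, which moved the median of all features to 0.22 and 0.16.

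**Figure D2:**
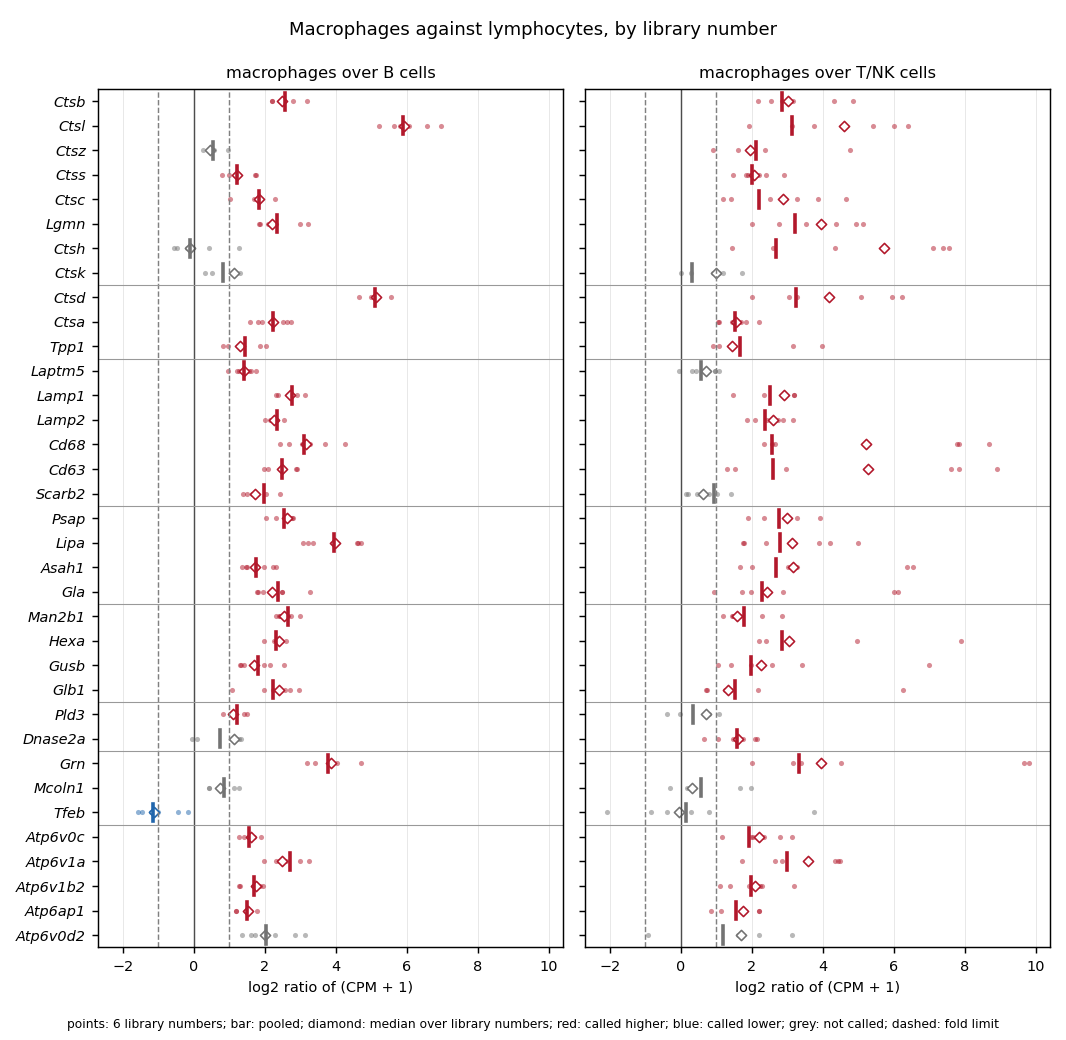
Log2 ratio of (CPM + 1) of macrophages over B cells (left) and over T/NK cells (right) for each gene. Points are library numbers, bars the pooled ratio, diamonds the median over library numbers and dashed lines 2-fold, with genes called higher in red, lower in blue and not called in grey. *Ctsl* and *Ctsd* stand furthest to the right against B cells, at 5.88 and 5.10, and *Tfeb* is the gene called lower.

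The cysteine cathepsins ranged from *Ctsl*, which B cells nearly lacked, to *Ctsh*, which they held at about the level of macrophages. *Ctsl*, an endopeptidase, stood at 679.6 CPM in macrophages and 10.5 CPM in B cells, a log2 ratio of 5.88 (95% interval 5.81 to 6.22). Its level by library number was 441, 462, 923, 605, 748 and 1487 CPM in macrophages, and no library of B cells exceeded 17.7 CPM. Intervals here are of the ratio of CPM without the added CPM. *Ctsb*, which cuts both as an endopeptidase and from the carboxyl end, was the most abundant member, at 1471, 1545, 2590.0, 2559.7, 2821 and 4163 CPM in libraries 1 to 6, against 281 to 713 CPM in B cells and 87.6 to 466 CPM in T/NK cells. The macrophage and lymphocyte ranges of *Ctsb* did not overlap.

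*Ctss* and *Ctsz* were abundant in B cells too. *Ctss*, the protease known for trimming the invariant chain of MHC class II, was at 440.3 CPM in macrophages, 188 CPM in B cells and 110.0 CPM in T/NK cells. *Ctsz*, a carboxypeptidase, was at 650.0 CPM against 447 CPM in B cells, higher in macrophages in 6 of 6 libraries by 0.26 to 0.96 on the log2 scale, but under 2-fold in the pool and so not called. *Ctsh*, an aminopeptidase, had 149.7 CPM in macrophages and 162 CPM in B cells, with 2 libraries higher and 4 lower. In T/NK cells *Ctsh* was at 47.6, 5.58, 26.0, 0, 0 and 0 CPM by library number, and it was called higher in macrophages. A count of 0 in the 18 T/NK cells of library 6 allows up to 66.6 CPM, so the zeros in the small T/NK sets limit little.

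The remaining members of this family were called higher against both lymphocyte classes, except *Ctsk*. *Ctsc*, which activates the serine proteases of granules, had log2 ratios of 1.83 over B cells and 2.21 over T/NK cells. *Lgmn*, the asparagine-specific endopeptidase that matures cathepsins, had 2.33 and 3.21. *Ctsk*, the collagen-cutting protease of osteoclasts, came from 13 UMIs in all macrophages.

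*Ctsd*, the main aspartic protease of the lysosome, showed the widest gap to B cells after *Ctsl*. Its level was 1169, 1421, 2075, 2409.6, 2804 and 2788 CPM in the macrophages of libraries 1 to 6 and 45.8, 41.4, 64.3, 66.6, 59.2 and 75.9 CPM in the B cells, a pooled log2 ratio of 5.10 (95% interval 5.03 to 5.21). Every macrophage library lay more than 10-fold above every B cell library. In T/NK cells *Ctsd* ran from 31.3 to 290.2 CPM. *Ctsa*, a carboxypeptidase that also holds the lysosomal sialidase and galactosidase together, was at 220.3, 46.5 and 75.3 CPM in macrophages, B cells and T/NK cells, and *Tpp1*, which removes tripeptides from amino ends, at 101, 36.7 and 31.3 CPM. Both were called higher in macrophages against either class.

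All 6 membrane proteins were called higher against B cells, and 4 against T/NK cells. *Lamp1* and *Lamp2*, the glycoproteins that line the inner face of the membrane, had 643 and 331 CPM in macrophages, and log2 ratios over B cells of 2.76 and 2.33. *Cd68*, widely used as a macrophage stain, had 164, 163, 417, 217, 226 and 406 CPM in macrophages by library number, and 24.6, 29.3, 31.7, 21.5, 26.4 and 20.3 CPM in B cells. The tetraspanin *Cd63* had 120.4, 112, 307, 193, 226 and 475 CPM in macrophages and 25.1 to 63.4 CPM in B cells. Neither pair of ranges overlapped, and *Cd63* and *Cd68* had no UMI in the T/NK cells of libraries 4, 5 and 6.

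*Laptm5* and *Scarb2* were nearer to the lymphocytes. *Laptm5*, a membrane protein known from blood cells that sends receptors to degradation, was at 850.0 CPM in macrophages, 319.9 CPM in B cells and 575 CPM in T/NK cells, where the ratio of 0.56 on the log2 scale was positive in 5 of 6 libraries. *Scarb2*, the receptor that carries glucocerebrosidase to the lysosome, was at 59.7, 14.4 and 30.8 CPM. Its ratio over T/NK cells, 0.93, fell just short of 2-fold, and it was called under 6 other settings.

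Lipid breakdown was called higher in macrophages for all 4 of its members against both classes. *Psap*, the precursor of the saposins that present sphingolipids to their enzymes, reached 1167, 1187, 2529, 1909, 2093 and 3842 CPM in macrophages by library number, against 236 to 552 CPM in B cells. *Lipa*, the acid lipase that frees cholesterol from its esters, was at 256, 231, 241, 565, 550.3 and 426 CPM, while B cells stayed between 16.4 and 26.7 CPM, a pooled log2 ratio of 3.94 (95% interval 3.86 to 4.14). The acid ceramidase *Asah1* and the galactosidase *Gla* were lower in level, at 64.9 and 47.0 CPM in macrophages, with ratios over B cells of 1.74 and 2.38.

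The 4 glycosidases behaved alike: *Glb1* (galactosidase), *Hexa* (hexosaminidase), *Gusb* (glucuronidase) and *Man2b1* (mannosidase) were each called higher against both classes. Their log2 ratios over B cells were 2.23, 2.31, 1.80 and 2.65, and over T/NK cells 1.53, 2.85, 1.98 and 1.76. Enzymes for nucleic acids differed less between the classes. *Dnase2a*, the acid DNase that clears the DNA of engulfed cells, was at 66.3 CPM in macrophages and 39.1 CPM in B cells and was not called there. The exonuclease *Pld3* was called against B cells (1.22) but stood at 75.3 CPM in T/NK cells beside 95.2 CPM in macrophages.

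The genes that regulate the organelle did not move together. *Grn*, the precursor of the granulins that support several hydrolases, was at 479, 479, 576, 813, 775 and 897 CPM in macrophages and 51.9, 44.0, 39.3, 54.2, 46.3 and 33.6 CPM in B cells by library number, a pooled log2 ratio of 3.77 (95% interval 3.70 to 3.91). *Tfeb*, the transcription factor, went the other way, at 5.76, 8.34, 5.79, 6.48, 12.3 and 9.63 CPM in macrophages and 17.6, 20.7, 12.6, 21.2, 17.1 and 11.0 CPM in B cells. It was lower in macrophages in all 6 libraries, although the ranges overlapped, and its pooled ratio of -1.14 lost the call with DESeq2 size factors or with 5 CPM added. *Mcoln1*, the calcium channel through which lysosomes signal to TFEB, had 24.2 CPM in macrophages, 12.9 CPM in B cells and 15.9 CPM in T/NK cells and was called against neither.

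Of the 5 proton pump members, 4 were called higher against both classes. *Atp6v0c*, which forms the rotating ring in the membrane, was at 739, 249.7 and 195 CPM in macrophages, B cells and T/NK cells. *Atp6v1a*, the catalytic subunit, had 226, 226, 257, 438, 550.3 and 468 CPM in macrophages by library number, and its log2 ratios were 2.69 over B cells and 2.99 over T/NK cells. *Atp6v1b2*, its nucleotide-binding partner, and the accessory protein *Atp6ap1* had ratios over B cells of 1.70 and 1.49. *Atp6v0d2*, an isoform known from osteoclasts and macrophages, was under the minimum level, at 3.77 CPM in macrophages and 0.162 CPM in B cells.

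Some of the lymphocyte signal moved with macrophage RNA in the same gates. The T/NK gate did not bar macrophage genes, and 29 of its 514 cells (5.64%) held a UMI of *Csf1r* or *Adgre1*, as did 117 of 2948 B cells (3.97%). In T/NK cells, 7 abundant macrophage markers stood at 11.5% to 16.1% of their macrophage level, and in B cells at 1.62% to 2.39%. The members stood at a median of 23.0% and 19.8% of their macrophage level. In T/NK cells 11 members, *Ctsd*, *Ctsb* and *Psap* among them, lay at or below the highest marker, and in B cells only *Ctsl* did.

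Without those cells the markers fell to at most 0.917% in T/NK cells and 0.637% in B cells, while the members' medians became 15.0% and 18.5%. Of the 11 members in T/NK cells only *Ctsl* then lay at or below the highest marker, as it did in B cells. Whether the *Ctsl* UMIs of lymphocytes came from macrophages was not tested. The share of UMIs on the members in T/NK cells became 0.194%. *Ctsd* was then at 4.42% of the macrophage level in T/NK cells and 1.44% in B cells, and *Ctsl* at 0.872% and 0.320%. *Laptm5* remained at 63.7% in T/NK cells and *Pld3* at 83.0%. Of the members called in either comparison, the 28 called higher in each were still called.

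**Figure D3:**
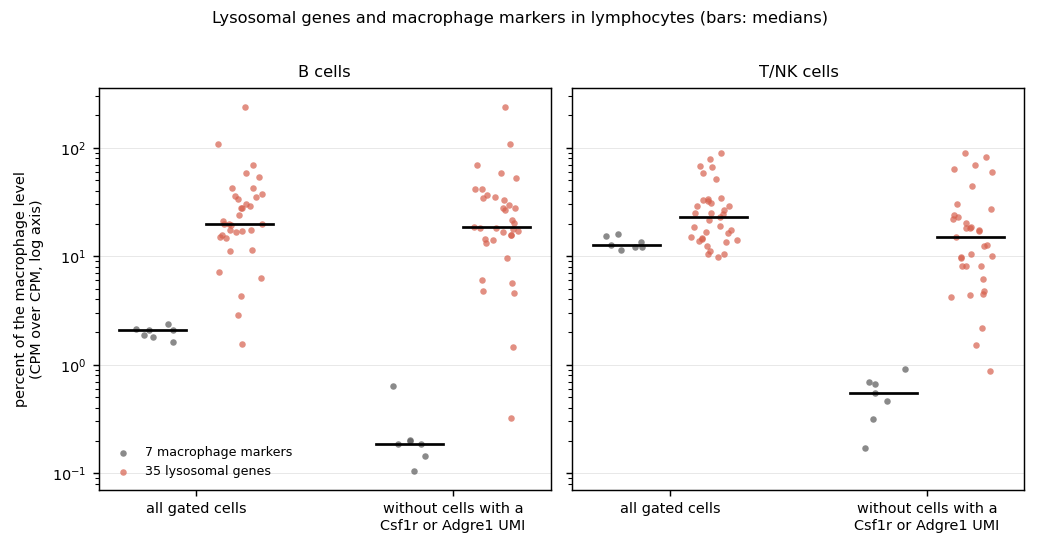
Level in B cells (left) and T/NK cells (right) as a percent of the level in macrophages, on a log axis, for 7 macrophage markers (grey) and the 35 lysosomal genes (red), in all gated cells and without cells that hold a *Csf1r* or *Adgre1* UMI. Bars are medians. In T/NK cells the marker median falls from 12.7% to 0.545% and the median of the lysosomal genes from 23.0% to 15.0%.

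Other genes of the lysosome followed the members less closely. Of all features tested, 18.1% were called higher and 20.9% lower than in B cells, and 17.0% and 13.9% than in T/NK cells. Of 19 further pump subunits, 13 reached the minimum, and 7 were called higher in macrophages than in B cells and 8 than in T/NK cells, with none lower. *Tcirg1*, a large membrane subunit, was at 157 against 23.1 CPM in B cells, *Atp6v1e1* at 203 against 46.6 CPM and *Atp6v0b* at 549 against 176 CPM. Of 38 further genes listed as hydrolases, 10 of 32 tested were called higher than in B cells and 3 lower. *Pla2g15*, *Acp2* and *Galc* led those higher, at log2 ratios of 2.77, 2.62 and 2.11. The cathepsin *Ctse* (-3.22), the phosphatase *Acp5* (-1.61) and *Ctso* (-1.19) were higher in B cells. Against T/NK cells 11 of 34 were called higher and 4 lower, the widest being *Ctsw*, a cathepsin known from cytotoxic lymphocytes, at 0.798 against 71.5 CPM.

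The further membrane proteins were also called in both directions, beside 18.1% of all features called higher than in B cells and 20.9% lower. Of 20 tested, 8 were called higher in macrophages than in B cells, led by the metal transporter *Slc11a1* (307 against 8.17 CPM), the peptide transporter *Slc15a3* (446 against 46.8 CPM) and the calcium channel *Tpcn2* (39.4 against 4.60 CPM). The 4 lower, a count near the share of all features, included *Gpr137b* (19.5 against 149.8 CPM), the amino acid sensor *Slc38a9* (9.22 against 49.9 CPM) and *Mcoln2* (20.2 against 46.5 CPM). Among genes for transcription and nutrient sensing, 7 of 14 were called higher and none lower. *Mitf* and *Tfec*, the relatives of *Tfeb*, were among them at 80.1 against 2.49 CPM and 36.1 against 0.703 CPM, as was *Fnip2*, a folliculin partner, at 78.3 against 1.78 CPM. Of 7 inhibitors of cysteine cathepsins, 3 reached the minimum and were called higher, with *Cst3* at 1531 against 208 CPM, *Cstb* at 1004 against 452 CPM and *Stfa3* at 17.6 against 0.0541 CPM. Of 6 genes that sort enzymes to the lysosome, *Sort1* was called higher (3.19) and *Gnptab* lower (-1.53).

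Against T/NK cells, 17.0% of all features were called higher and 13.9% lower. The pump subunits were led there by *Atp6v0a1* (2.63 on the log2 scale), *Tcirg1* (2.62) and *Atp6v0b* (2.11), and the hydrolases among others by *Scpep1* (2.56) and *Galc* (2.14), with *Ctse* (-3.19) and *Acp5* (-2.10) lower beside *Ctsw*. Of 22 membrane proteins tested 8 were called higher, led by *Slc15a3* (3.18), *Slc11a1* (3.11) and *Tpcn2* (2.22), and *Slc38a9* was lower (-1.82). Of 15 genes for transcription and nutrient sensing 7 were higher, led by *Tfec* (3.54), *Fnip2* (3.49) and *Mitf* (2.46). Among the 6 sorting genes tested, *Sort1*, at 0 UMIs in T/NK cells, and *M6pr* (1.13) were higher and *Gnptg* (-1.28) lower. The inhibitors *Cst3* (2.33), *Stfa3* (1.94) and *Cstb* (1.81) were higher, 3 of 4 tested.

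Macrophages were next split by a transcription factor or receptor that the field uses to tell their kinds apart. *Gata6* marks large peritoneal macrophages, *Irf4* the small ones that come from monocytes, and *Folr2* a further resident kind. Cells with at least 1 UMI of only *Gata6* numbered 624, of only *Folr2* 103 and of only *Irf4* 236, while 1758 held none of these genes and 52 held more than 1. The *Gata6*-gated cells carried *Prg4* in 96.6% and *F5* in 88.5%, markers of large macrophages, which the *Irf4*-gated cells carried in 29.7% and 26.7%. *Irf4*-gated cells carried *Retnla* in 74.2% and *H2-Aa* in 83.5%, against 12.5% and 41.5% of *Gata6*-gated cells. *Lyz1*, also listed for small macrophages, was in 80.5% of *Irf4*-gated and 80.9% of *Gata6*-gated cells, though at 4009 against 901 CPM. *Folr2*-gated cells carried *Prg4* in 73.8%, *F5* in 34.95%, *Retnla* in 80.6% and *H2-Aa* in 43.7%. *Retnla* therefore did not set the *Irf4*-gated cells apart from the *Folr2*-gated ones. Median depths were 5553, 4273 and 4036 UMIs for the *Gata6*-, *Folr2*- and *Irf4*-gated cells, and the gates leave most macrophages out.

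Some markers of other cells were found in *Irf4*-gated cells. *Siglecf* of the eosinophil list was in 24.2% of them and in none of the *Gata6*-gated cells, but *Prg2*, *Epx*, *Ear1* and *Ear6* were at 0 and *Ccr3* in 0.424%. *Batf3* of the dendritic cell list was in 11.0%, *Zbtb46* in 7.20%, *Cd209a* in 4.24% and *Ccr7* in 2.54%. In *Gata6*-gated cells these were in 0.160%, 2.88%, 1.28% and 0.801%. *Xcr1*, *Clec9a* and *Itgae* were at 0 in *Irf4*-gated cells and *Flt3* in 0.424%. *Il7r* of the T and NK cell list was in 57.2% of *Irf4*-gated and 5.77% of *Gata6*-gated cells. It was the 1 of 10 markers of that list found in at least 10% of *Irf4*-gated cells. *Ighm*, of B cells, was in 9.75%. A UMI of a dendritic or B cell marker occurred in 70 of the 236, in 43 of 624 *Gata6*-gated and in 8 of 103 *Folr2*-gated cells. Without these cells the counts of members called against the *Gata6*-gated cells were the same. In the *Folr2*-gated comparison, however, *Dnase2a* lost its call and *Atp6v0c* gained one.

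*Folr2*-gated macrophages put the largest share of UMIs on the members. By library number from 1 to 6 it was 2.09%, 1.92%, 2.60%, 2.24%, 2.62% and 3.01%, against 0.934%, 0.981%, 1.30%, 1.70%, 1.72% and 2.31% in *Gata6*-gated and 1.14%, 0.967%, 1.79%, 1.78%, 1.69% and 2.21% in *Irf4*-gated macrophages. *Folr2*-gated cells were above both others in 6 of 6 libraries, whereas *Irf4*-gated cells were above *Gata6*-gated ones in 3. The gated sets draw on the libraries unequally: library 6 gave 104 of the 236 *Irf4*-gated cells and libraries 1 and 2 gave 306 of the 624 *Gata6*-gated ones. Library 4 gave 46 of the 103 *Folr2*-gated cells. For the members as a group, and for some genes, the pooled ratio is therefore given beside the median over the 6 library numbers. Other ratios and levels between gated sets, where no library number is named, are of the pool only.

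In these comparisons a call needed 1.5-fold in the pool and 1 direction in all 6 libraries. Of the 35 members 33 reached the minimum, and 16 were called higher in *Folr2*-gated than in *Gata6*-gated macrophages, beside 5.13% of 8767 features, and 0 lower, beside 3.09%. The median log2 ratio of the members was 0.82 in the pool and 0.57 by the median over libraries, against 0.29 and -0.0026 for all features tested. Scaling weighed heavily here. With TMM scaling 7 members were called higher and 3 lower, beside 119 and 859 of all features. With DESeq2 size factors 9 and 3 members were called, beside 202 and 501 of all features, where the main scaling gave 450 and 271. The share of all called features that were higher thus went from 62.4% to 12.2% and 28.7%, while the median of all features went to -0.18 and -0.03. *Ctsb*, *Tpp1*, *Cd68* and *Psap* were called higher under every setting tried.

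*Ctsb* stood at 3711, 3147, 6058, 4024, 4924 and 6580.1 CPM in the *Folr2*-gated cells of libraries 1 to 6 and at 1128, 1187, 1951, 2385, 2697 and 3847 CPM in the *Gata6*-gated cells, a pooled log2 ratio of 1.36 (95% interval 1.29 to 1.43). *Psap* stood at 2828, 2905, 4098, 2976, 3277 and 4916 CPM against 779.5, 908, 1462, 1892, 1752 and 3287 CPM. Both genes were higher in every library, by 0.75 to 1.72 for *Ctsb* and 0.58 to 1.86 for *Psap* on the log2 scale. *Tpp1* was at 157, 145, 336, 233, 259 and 406 CPM against 55.6, 36.0, 52.5, 117, 125 and 179 CPM, and *Cd68* at 471, 436, 954, 353, 629 and 639 CPM against 103, 131, 343, 243, 172 and 325 CPM. The *Folr2*-gated cells of library 2 were only 5, so a count of 0 there allows up to 145 CPM.

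Among the other members called higher, *Cd63* had 411 against 126 CPM, *Lipa* 739.8 against 299.6 CPM, *Dnase2a* 177 against 52.6 CPM and *Atp6v1b2* 312 against 126 CPM. *Ctsa*, *Ctsh*, *Ctsl*, *Ctsz*, *Lamp1*, *Asah1*, *Gusb* and *Grn* had pooled log2 ratios from 0.63 to 1.18. Each of these 12 members lost its call under some setting. *Lipa*, *Dnase2a*, *Ctsh*, *Ctsl*, *Lamp1*, *Gusb* and *Grn* lost it under either other scaling, and *Ctsz* and *Asah1* with TMM scaling. *Cd63*, *Ctsa* and *Atp6v1b2* lost it with at least 2 UMIs of the gating gene. *Ctsl* and *Gusb* also lost it by the median over library numbers. A smaller group went the other way in its values. *Ctsc* was lower in *Folr2*-gated cells in all 6 libraries, at 287 against 422 CPM, as was *Man2b1*, at 249 against 345 CPM, but neither reached 1.5-fold in the pool. Both were called lower, with *Scarb2* (31.6 against 79.0 CPM), under either other scaling. Under these scalings more of all features were called lower than higher as well.

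**Figure D4:**
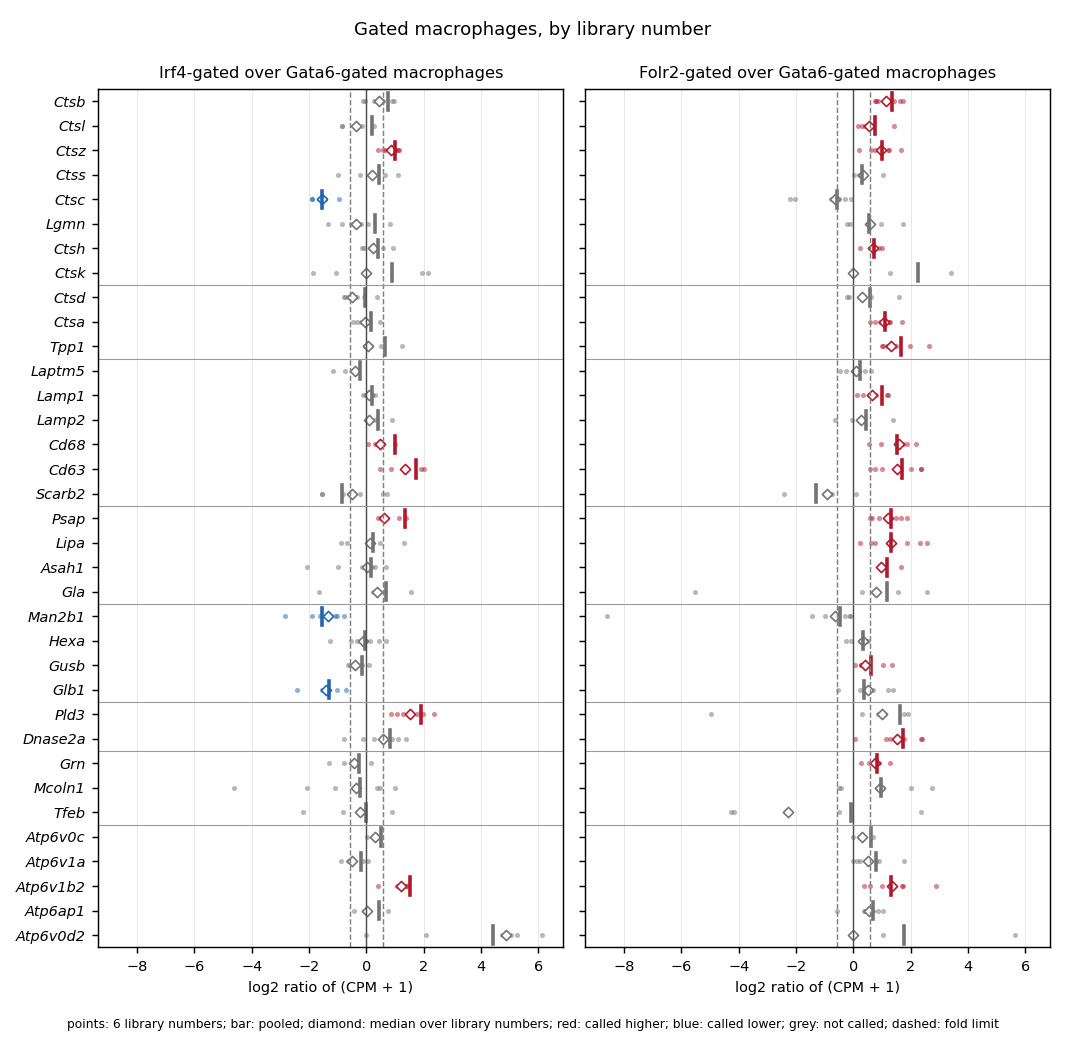
Log2 ratio of (CPM + 1) of *Irf4*-gated (left) and *Folr2*-gated (right) over *Gata6*-gated macrophages for each gene. Points are library numbers, bars the pooled ratio, diamonds the median over library numbers and dashed lines 1.5-fold, with genes called higher in red, lower in blue and not called in grey. On the right 16 genes are red, and on the left 6 are red and 3 blue.

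*Irf4*-gated macrophages differed from *Gata6*-gated ones in a few members rather than in the group. Here 34 of 35 reached the minimum and 6 were called higher, beside 7.36% of 8800 features, and 3 lower, beside 6.10%. The members' median log2 ratio was 0.31 in the pool but 0.01 by the median over libraries, against 0.08 and -0.02 for all features, and it was 0.17 without library 6 and 0.19 without library 1. Of all called features 54.7% were higher, a share of 37.8% with TMM scaling and 46.1% with DESeq2 size factors. Both comparisons use the same *Gata6*-gated cells.

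*Pld3*, *Psap*, *Ctsz* and *Atp6v1b2* were called higher under every setting tried. *Pld3* was at 129, 162, 254, 134, 243 and 287 CPM in *Irf4*-gated cells by library number and at 52.2, 30.6, 64.6, 63.0, 70.5 and 157 CPM in *Gata6*-gated cells, a pooled log2 ratio of 1.89 (95% interval 1.64 to 2.17) and a median over libraries of 1.53. *Psap* was at 1733, 1435, 3782, 2492, 2651 and 4621 CPM against 779.5, 908, 1462, 1892, 1752 and 3287 CPM, with 1.33 in the pool and 0.63 by the median. *Ctsz* and *Atp6v1b2* had medians over libraries of 0.84 and 1.21. *Cd63* (1.33) lost its call when cells were thinned to 1500 UMIs, and *Cd68* (0.47) lost it there and under 4 further settings.

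The 3 members lower in *Irf4*-gated macrophages were *Ctsc*, *Man2b1* and *Glb1*. *Ctsc* was at 116, 230.2, 156, 134, 121 and 132 CPM by library number against 438, 448, 586, 368, 381 and 358 CPM in *Gata6*-gated cells, and these ranges did not overlap. *Man2b1* was at 171, 54.2, 84.6, 191, 104 and 104 CPM against 364, 390.2, 315, 331, 318 and 213 CPM, which did not overlap either. *Glb1* was at 18.4, 13.5, 6.77, 38.2, 52.0 and 30.9 CPM against 50.2, 41.4, 40.4, 78.4, 86.1 and 84.0 CPM and was not called with stricter gates. Its *Irf4*-gated values in libraries 1, 2, 3 and 5 were at or below the level of 3 counts (18.4, 40.6, 10.1 and 52.0 CPM). The direction of *Glb1* in those libraries is therefore uncertain. *Laptm5* was lower in all 6 libraries as well, with a pooled log2 ratio of -0.22 that was under the limit.

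The pump isoform *Atp6v0d2* stood apart in the *Irf4*-gated cells. It had 36.7, 0, 37.2, 31.9, 69.3 and 25.3 CPM in *Irf4*-gated cells by library number, and in *Gata6*-gated cells a UMI only in library 3, at 8.08 CPM. Library 2 of the *Irf4*-gated cells held none among 13 cells, so the gene was not called, and it was called when that library was left out. In *Folr2*-gated cells it was found in libraries 2 and 3.

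Other lysosomal genes were compared over the same sets. Of all features tested, 5.13% were called higher and 3.09% lower in *Folr2*-gated cells, and 7.36% and 6.10% in *Irf4*-gated cells. The counts of further hydrolases called higher were near these shares, as was that of membrane proteins in *Folr2*-gated cells. Of 13 further pump subunits tested, 5 were called higher in *Folr2*-gated macrophages, led by *Atp6v0a1* (236 against 67.0 CPM), *Tcirg1* (242 against 89.5 CPM) and *Atp6ap2* (346 against 144 CPM), and 4 in *Irf4*-gated ones, led by *Tcirg1* (455 against 89.5 CPM), *Atp6ap2* (307 against 144 CPM) and *Atp6v1f* (423 against 249 CPM). Of the further hydrolases 2 of 32 were called higher in *Folr2*-gated cells (*Prcp*, 90.6 against 39.0 CPM, and *Scpep1*, 244 against 151 CPM) and 2 of 31 in *Irf4*-gated cells. These were *Gm2a*, the activator that lifts ganglioside to hexosaminidase (381 against 61.7 CPM), and the sterol carrier *Npc2* (964 against 601 CPM). Both were listed with the hydrolases, though neither is one itself. In *Irf4*-gated cells 20 membrane proteins were tested, and 4 were called higher and 1 lower. The nucleoside transporter *Slc29a3* (145 against 20.0 CPM) led those higher, before *Gpr137b* (39.0 against 10.1 CPM) and *Cd164* (204 against 114 CPM), while *Laptm4a* was lower (105 against 168 CPM). In *Folr2*-gated cells *Npc1* was the 1 membrane protein called of 19 tested (133 against 60.4 CPM). For transcription and nutrient sensing 15 genes were tested in each set, with 2 called higher in each and 1 lower in *Irf4*-gated cells. *Tfec* was the gene lower in *Irf4*-gated cells (5.44 against 44.3 CPM). *Lamtor3* and *Lamtor5*, of the complex that anchors nutrient sensing to the lysosome, were higher in *Irf4*-gated cells (153 against 84.9 CPM and 121 against 77.2 CPM) and in *Folr2*-gated cells (164 against 84.9 CPM and 118 against 77.2 CPM). Of the cathepsin inhibitors 3 were tested. *Cstb* was higher in both sets, at 1733 against 688 CPM and 1423 against 688 CPM, and *Stfa3* was lower in *Folr2*-gated cells, at 4.22 against 25.1 CPM. The mannose phosphate receptor *M6pr* was the 1 sorting gene of 6 called in *Folr2*-gated cells (373 against 222 CPM), with none in *Irf4*-gated cells.

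Member levels in macrophages varied between library numbers. Of the 33 members with at least 60 UMIs in macrophages, 22 were highest in library 6 (66.7%, against 38.0% of 9016 features with as many UMIs), and 28 were lowest in library 1 or 2 (84.8%, against 34.0%). The median log2 ratio of the highest to the lowest library was 1.14 for the members and 0.95 for all features. Library 6 had the lowest median depth in macrophages, 2861 UMIs per cell, and library 1 the highest, 6247. Whether depth had a part in the order was not tested, and the numbers stand for no known condition.

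**Figure D5:**
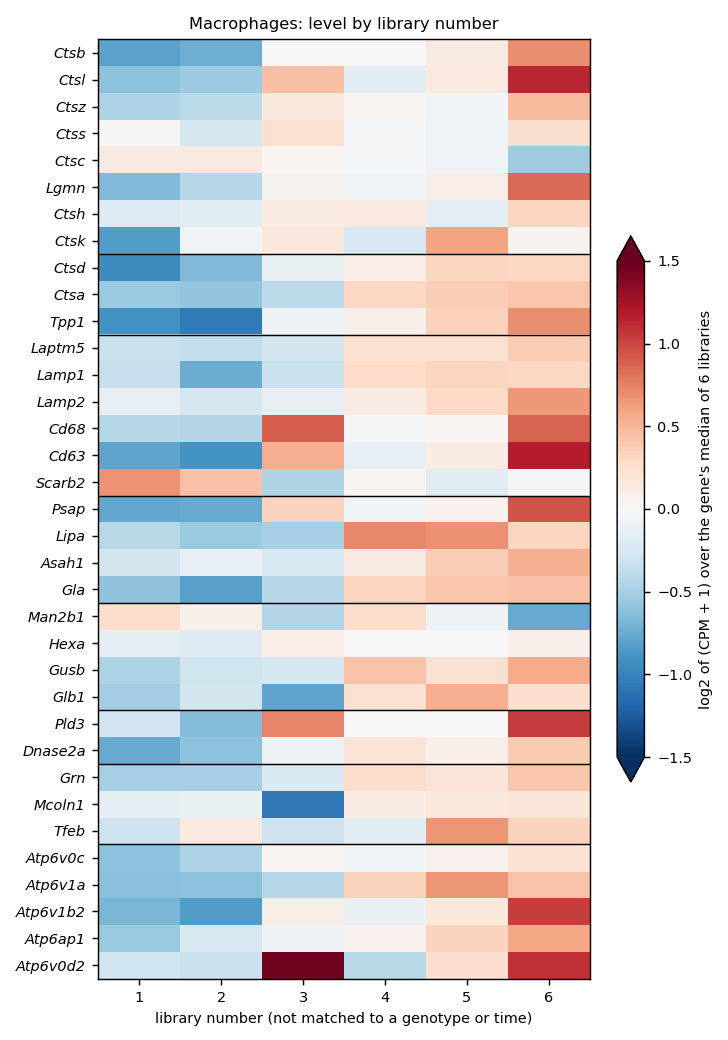
Level of each gene in the macrophages of each library number, as the log2 of (CPM + 1) over that gene's median of the 6 libraries, with red above and blue below the median and the colour scale cut at 1.5. Genes are grouped by role between the black lines, and library numbers are not matched to a genotype or a time. Libraries 1 and 2 are blue for most genes and library 6 is red, with *Ctsc*, *Man2b1* and *Scarb2* running the other way.

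The spread was widest for *Cd63*, from 112 CPM in library 2 to 475 CPM in library 6, a ratio of 4.23 (exact 95% interval 3.62 to 4.97), among members with over 60 UMIs. *Atp6v1b2* followed at 3.70 (3.15 to 4.36), then *Tpp1* at 3.42, *Ctsl* at 3.37, and *Psap* and *Pld3* at 3.29. *Hexa* was the steadiest, at 203, 196, 240.1, 225, 223 and 236 CPM, a ratio of 1.23 (1.05 to 1.43). *Man2b1*, *Ctsc* and *Scarb2* went against the others: *Man2b1* was at 311, 272, 191, 309, 245 and 153 CPM and *Ctsc* at 375, 376, 349, 335, 328 and 236 CPM, both lowest in library 6, and *Scarb2* was at 79.7, 67.8, 36.2, 50.6, 43.9 and 48.8 CPM, highest in library 1.

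The members did not share a single pattern over the libraries. *Cd63*, *Cd68*, *Pld3* and *Ctsl* were highest in libraries 3 and 6, and these are the libraries with the largest *Irf4*-gated share of macrophages, 19.1% and 20.1%, against 3.71% to 4.64% in the other 4. *Lipa* was highest in libraries 4 and 5, at 565 and 550.3 CPM, and stayed low in library 3, at 241 CPM. *Ctsa*, *Gla*, *Lamp1* and *Atp6v1a* had, like *Lipa*, their 3 highest values in libraries 4, 5 and 6. Whether the makeup of the macrophages had a part in these orders was not tested.

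Within the *Gata6*-gated cells alone the high end was like that of all macrophages by its counts, and the low end was not. Of 32 members with at least 60 UMIs there, 20 were highest in library 6 (62.5%, against 36.3% of 5641 features), while 10 were lowest in library 1, 9 in library 2 and 11 in library 3, where 3 were lowest in all macrophages. Lowest in library 1 or 2 were 59.4% of the members and 30.3% of the features. *Ctsl* was at 454, 439, 885, 649.6, 752 and 1742 CPM by library number and *Tpp1* at 55.6, 36.0, 52.5, 117, 125 and 179 CPM. In B cells 20 of 33 members were highest in library 6 (60.6%, against 41.3% of 10205 features) and 7 were lowest there, among them *Ctsh*, *Ctss*, *Cd68* and *Grn*. *Ctsb* was at 323, 333, 484, 281, 409.9 and 713 CPM in B cells, *Ctsz* at 339, 386, 568, 366, 492 and 802 CPM and *Psap* at 236, 292, 389.8, 282, 352 and 552 CPM, each highest in library 6. The B cells of library 6 were the shallowest, at a median of 3867 UMIs per cell.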

How the data were processed

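Peritoneal cells were profiled with the 5′ single-cell kit of 10x Genomics in 6 libraries. The authors deposited the raw UMI counts of all cells in 1 table. They demultiplexed with Cell Ranger (version 2.2 per the labels, with Seurat 3.0 for later steps), aligned reads to human (hg38) and mouse (mm10) genomes with STAR, and kept the reads mapped to mouse. Reads that fit both species could move either way. The labels name mm10 (GRCm38).

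A cell was left out if it had under 500 genes, over 10% mitochondrial UMIs, or a complexity (log genes over log UMIs) under 0.8. Doublets were called with Scrublet in scanpy 1.11.5. UMIs were summed per gated class and library number and divided by the class total to give CPM. Each value of a ratio is the log2 of (CPM + 1) in the first class over that in the second, and 95% intervals are exact binomial intervals of UMI counts, which cover counting error only. A call needed a mean of 5 CPM over both classes, a pooled ratio of 2-fold against lymphocytes or 1.5-fold between gated macrophages, and the same direction in all 6 library numbers. The study's tests over cells were not used, because each group is 1 library of pooled mice. Scaling factors came from edgeR 4.0.16 (TMM) and DESeq2 1.42.0 and were used only as alternatives. Library totals ran from 4234786 to 10287079 UMIs, and a count of 0 allows up to 3 counts of a set's total.

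All 35 members are named, and from each other list up to 3 genes called higher and up to 3 called lower with the largest pooled ratio. A gene that this rule names is not reported here. The members and lists were chosen with earlier results of these data known. Promoters came from RefSeq and gene positions from GENCODE. Alternatives covered cell filters, doublets, gates, thinning, scaling, the added CPM, the minimum level, pooling and each library left out.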

Additional observations from a re-analysis of the deposited data

How the results depend on the processing

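Under 20 other settings, 3 of them chosen after seeing the data, no ratio of a member or list that was called changed direction. Against B cells, 28 or 29 members were called higher in each, and *Tfeb* lost its call as lower (0 members lower) with DESeq2 size factors and with 5 CPM added, where the median log2 ratio was 1.79. Without lymphocytes that held a *Csf1r* or *Adgre1* UMI the T/NK share of UMIs on the members was 0.194%. The *Folr2*-gated comparison moved most. Its members called higher were 7 with TMM scaling, 9 with DESeq2 size factors and 10 with at least 2 UMIs of the gating gene. Its members called lower were 3 with either scaling (*Ctsc*, *Scarb2* and *Man2b1*) and 2 by the median over library numbers (*Ctsc* and *Man2b1*), and its median log2 ratio was 0.34 with TMM scaling. Of all features, 859 were called lower in this comparison with TMM scaling and 501 with DESeq2 size factors. The *Irf4*-gated median was 0.013 by the median over library numbers. The cause of these shifts was not tested.

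With each library left out in turn, members called higher ran from 28 to 29 against both lymphocyte classes, from 15 to 17 in *Folr2*-gated and from 6 to 8 in *Irf4*-gated cells, where *Atp6v0d2* and *Gla* joined without library 2. Members called lower ran from 0 to 2 in *Folr2*-gated cells: *Tfeb* was called without library 1, *Ctsc* and *Man2b1* without library 4, and *Ctsc* and *Scarb2* without library 5. Median log2 ratios ran from 0.63 (without library 1) to 1.04 (without library 4) in *Folr2*-gated cells and from 0.17 to 0.43 in *Irf4*-gated cells. No paired test was run, since no result here comes from a test, but each ratio between classes was also taken within every library number. The small *Folr2*-gated and T/NK sets limit what can be seen of members under 100 CPM.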
